A study of Mus musculus with 19 samples.

Results

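Expression of 10 genes was followed in these tumours: the 4 receptors of the epidermal growth factor (EGF) receptor family (Egfr, Erbb2, Erbb3 and Erbb4), their ligands Areg, Ereg, Hbegf and Nrg1, and the receptors Met and Igf1r. Array spots were taken as members by the gene symbol in the platform annotation. Of the 10 genes, 9 had a spot. Amphiregulin (Areg) had none under its symbol, its gene identifier or its transcript, so it is not analysed here. The 9 genes had 59 of the 45220 spots on the array, and 58 of these were measured on enough arrays to be used. They were 9 of the 18553 genes tested.

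Each of 19 mammary adenocarcinomas was hybridised once to a 2-colour oligonucleotide array. All came from FVB mice that carry a transgene for the T antigen of simian virus 40, driven by the C3(1) promoter of the rat. In this C3(1)-Tag model the T antigen, which inactivates p53 and the retinoblastoma protein, gives rise to tumours of the mammary epithelium. The labels gave 3 treated responders (1 after 2 weeks and 2 after 3 weeks), 9 treated non-responders (4 after 2 weeks and 5 after 3 weeks) and 7 untreated tumours. Treatment was carboplatin, which crosslinks DNA, with paclitaxel, which stabilises microtubules. Untreated tumours carried the same transgene, and neither the criterion of response nor the age of the mice is stated in the labels. On every array the tumour RNA carried Cy5 and a whole-mouse reference RNA carried Cy3, with no dye swap. Values are log2 ratios, likely of tumour over reference, since neither the direction nor the log base is stated. If the ratio ran the other way, every sign given here would turn. A ratio above 0 is called above the reference, and differences between groups are differences of mean log2 ratios.

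A responder (replicate 3) and a non-responder (replicate 1) carried the same animal number in their titles, so they were probably tumours of 1 mouse, and they were tested as separate samples. Each of the other titles had a number of its own, but nothing states outright that those tumours came from separate mice. The p-values thus measure the spread between tumours. Titles had 2 forms, and all 3 responders, 2 non-responders and 2 untreated tumours had the form with a hyphen before the number. What this form marks is not given. Defining markers of epithelium averaged 0.99 to 2.59 in every tumour, with 6 of 8 marker genes above the reference on average (such as Epcam at 2.31 and Krt18 at 2.53). Cdh1, at -0.57, and Krt19, at -0.12, were below it, and Cldn4 reached 8.33 in a tumour. The marker lists of fibroblasts (0 of 7), adipocytes (0 of 4), endothelium (0 of 5) and skeletal muscle (0 of 5) had no gene above the reference on average. In a piece of tumour, fewer cells of a type and less RNA per cell cannot be told apart.

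The EGF receptor and its relatives are receptor tyrosine kinases that pair at the cell surface when ligand binds. Erbb2 has no known ligand and acts as a partner for the others. Erbb3 binds neuregulins but has little kinase activity of its own, and Erbb4 binds both neuregulins and some EGF-like ligands. The ligands are made as membrane proteins and are released by metalloproteases of the ADAM family. Met is the receptor of hepatocyte growth factor and Igf1r that of the insulin-like growth factors. These receptors feed the same Ras and phosphatidylinositol 3-kinase cascades, and in breast cancer they are known chiefly from amplified ERBB2 and from EGFR in tumours of basal type.

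The first comparison, treated against untreated tumours, is the one that the series' design names. Mean levels of the 9 genes lay close together in the 12 treated and the 7 untreated tumours, with differences of -0.40 (Hbegf) to 0.26 (Nrg1) on the log2 scale, and no member passed the test. In limma, 0 of 9 passed an adjusted p of 0.05 and 0 of 9 had an unadjusted p under 0.05, beside 3.65% and 20% of all 18553 genes tested. Their differences had a median of -0.07, against 0.03 over all genes, and 2 of 9 were above 0, against 52.7% of all genes. The treated and untreated groups overlapped for every member (0 of 9 apart, beside 0.334% of all genes). Adjusted p-values ran from 0.392 for Hbegf to 0.994 for Erbb2.

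Erbb2 was above the reference in all 19 tumours. Its log2 ratios were 0.78, 0.81 and 0.78 in the responders. Non-responders ran from 0.22 through a median of 0.72 to 1.26, and untreated tumours from 0.38 through a median of 0.70 to 1.499. The responders thus lay close together inside the range of both other groups. Treated tumours averaged 0.79 ± 0.31 and untreated tumours 0.78 ± 0.35 (SD, n = 12 and 7), a difference of 0.004 ± 0.17 (SE; limma adjusted p = 0.994) with a 95% confidence interval of -0.34 to 0.35. Its 11 spots, all of the same transcript, correlated over the arrays at a median r of 0.71. The median was 0.21 over 8073 genes with more than 1 spot, but some of these have spots of several transcripts. Whether the Erbb2 spots repeat a probe was not tested. One of the 11 spots ran from -4.18 to 2.17 and stood apart from the other 10.

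Egfr, the receptor of EGF, amphiregulin and epiregulin among others, lay close to the reference. It was above the reference in 9 of 19 tumours. Treated tumours ran from -0.61 through a median of -0.02 to 0.43, and untreated tumours from -0.38 through a median of -0.05 to 0.44. These ranges overlapped almost wholly. The difference was -0.07 ± 0.16 (SE; 95% confidence interval -0.41 to 0.27; limma adjusted p = 0.860).

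Erbb3 was above the reference in 15 of 19 tumours and also overlapped between the groups. Treated tumours ran from -0.73 through a median of 0.22 to 0.91, and untreated tumours from -0.10 through a median of 0.10 to 1.62. The difference of -0.20 ± 0.23 did not pass (SE; limma adjusted p = 0.694). Erbb4 was above the reference in 9 of 19 tumours. Its treated values ran from -0.998 through a median of -0.05 to 0.31, and its untreated values from -0.41 through a median of 0.02 to 1.003. An untreated tumour supplied the highest value and a responder the lowest, and the difference was -0.18 ± 0.19 (SE; limma adjusted p = 0.636). Without that untreated tumour, replicate 5, it was -0.03, and without that responder, replicate 1, it was -0.10. The 3 Erbb4 spots used correlated over the arrays at a median r of 0.34.

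Among the ligands, Hbegf, the heparin-binding EGF-like growth factor that binds Egfr and Erbb4, was above the reference in all 19 tumours. It read 2.26, 0.50 and 1.89 in the responders. Non-responders ran from 1.496 through a median of 1.85 to 2.3, and untreated tumours from 0.95 through a median of 2.32 to 2.74. In 9 of 12 treated tumours it was under the untreated mean, and the lowest value of all belonged to a responder. Treated tumours averaged 1.81 ± 0.49 and untreated tumours 2.21 ± 0.60 (SD, n = 12 and 7). The difference of -0.40 ± 0.25 (SE; 95% confidence interval -0.91 to 0.12) did not pass (limma adjusted p = 0.392), and it was -0.61 without the lowest untreated tumour, replicate 7. Within the hyphen-titled arrays the Hbegf difference was -0.89, and within the other arrays -0.13. Hbegf had a single spot.

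Ereg (epiregulin), an Egfr and Erbb4 ligand, was above the reference in 18 of 19 tumours and varied more than the other members. Treated tumours ran from -1.81 through a median of 0.83 to 2.63, and untreated tumours from 0.27 through a median of 0.92 to 2.28. Its SD over all arrays was 0.956, which lay at the 87.7th percentile of all genes. The width came from 1 of its 2 spots: the spot for NM_007950 ran from -4.18 to 4.49, the spot for AK019057 only from 0.07 to 1.83, and they correlated at r = -0.07. The treated minus untreated difference was -0.15 ± 0.44 (SE; limma adjusted p = 0.887). Nrg1, the neuregulin that binds Erbb3 and Erbb4, was above the reference in 8 of 19 tumours. Its values ran from -0.68 through a median of 0.07 to 0.85 in treated tumours and from -1.004 through a median of -0.18 to 0.23 in untreated tumours. The difference was 0.26 ± 0.22 (SE; limma adjusted p = 0.555), and its 5 spots correlated at a median r of only 0.08.

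Met was above the reference in all 19 tumours and was the least variable member, with an SD of 0.249 at the 3.58th percentile of all genes. It ran from 0.54 through a median of 1.02 to 1.33 in treated tumours and from 0.73 through a median of 0.99 to 1.38 in untreated tumours. The difference was -0.02 ± 0.14 (SE; 95% confidence interval -0.32 to 0.27; limma adjusted p = 0.946). Its 3 spots did not follow each other (median r -0.19), so the small spread belongs to their mean. Igf1r was above the reference in 2 of 19 tumours. Treated tumours ran from -0.90 through a median of -0.34 to 0.09, and untreated tumours from -0.99 through a median of -0.45 to 0.56, with a difference of -0.07 ± 0.19 (SE; limma adjusted p = 0.876).

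**Figure D1:**
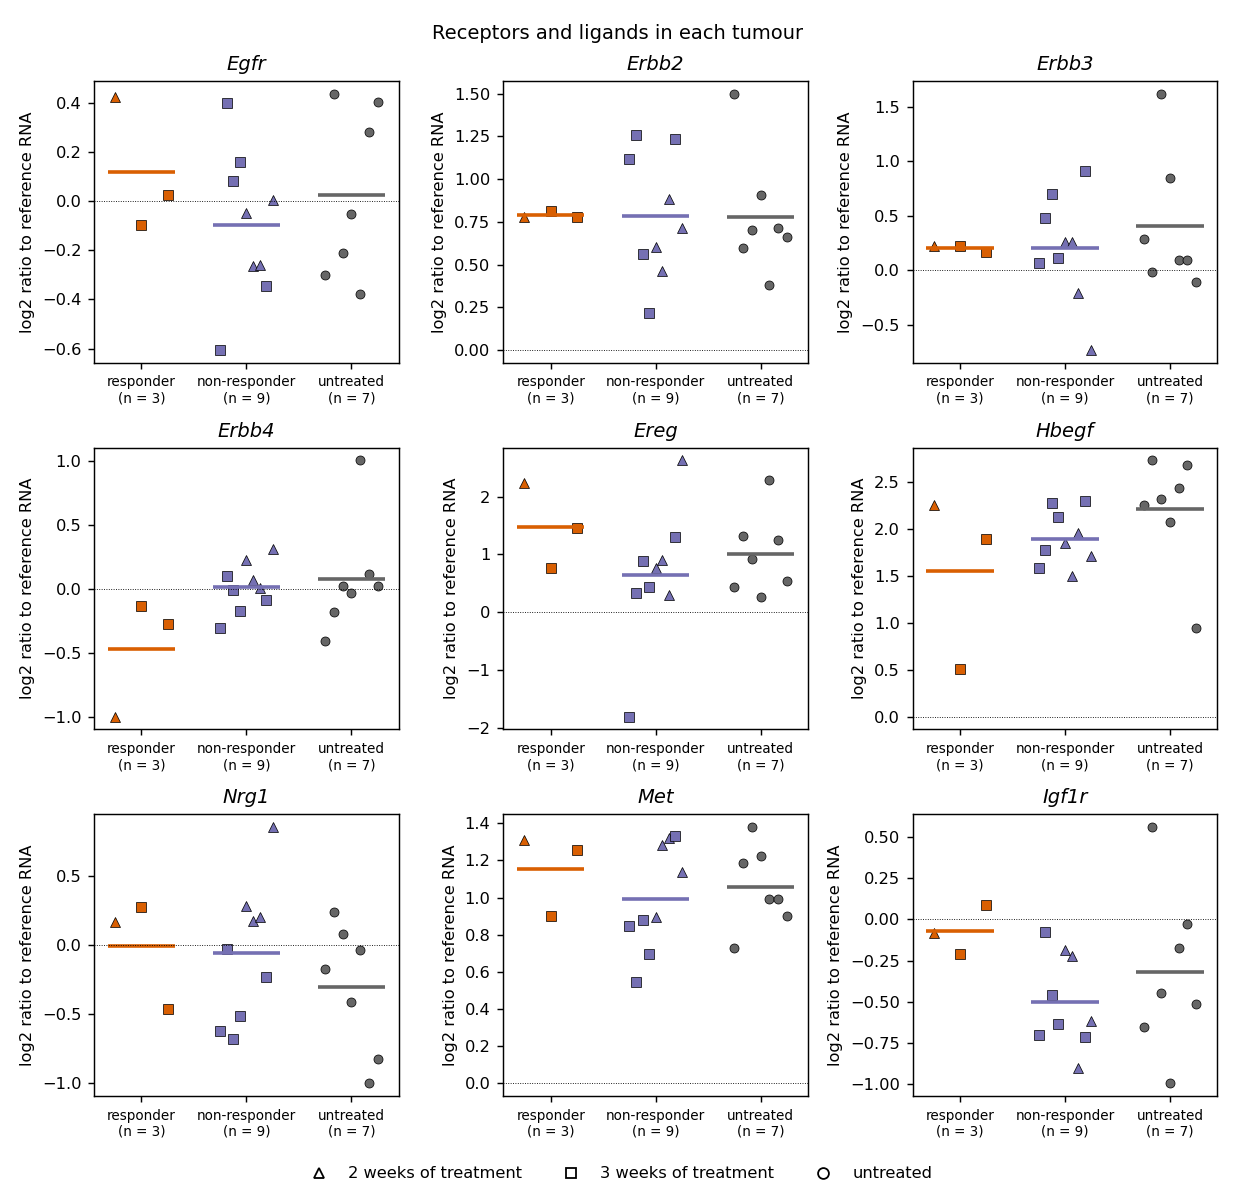
Log2 ratio to the reference RNA (vertical axis, scale differs by panel) of the 9 genes in each tumour, by group, with bars at group means and symbols for weeks of treatment. Erbb2, Hbegf and Met lie above 0 in all 19 tumours, and the 3 groups overlap in every panel.

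Responders and non-responders were then set against each other, since the titles name response in each treated tumour. No member passed the test, and neither did any other gene: 0 of 9 members and 0% of 18553 genes passed in limma, with 0 of 9 members and 6.33% of all genes at an unadjusted p under 0.05. The responder group held 3 tumours, so intervals were wide. The members' median difference was 0.05, against -0.01 over all genes.

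Erbb4 had the smallest p. It read -0.998, -0.14 and -0.28 in the responders, against -0.30 to 0.31 with a median of 0.003 in the non-responders. The 2 higher responders lay inside the non-responder range and the other lay far below it. The difference was -0.48 ± 0.24 (SE; 95% confidence interval -0.99 to 0.02; limma adjusted p = 0.809). Without the lowest responder, which is replicate 1, it was -0.22.

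Igf1r came next. It read -0.09, -0.21 and 0.09 in the responders, all above the non-responder mean, against -0.90 to -0.08 with a median of -0.62 in the non-responders. The difference was 0.43 ± 0.26 (SE; 95% confidence interval -0.10 to 0.97; limma adjusted p = 0.859). Its 5 spots shared the difference in part. It was 1.02 for the spot of AK086316, 0.62 for AK040698 and 0.58 for AK087668, against 0.02 for AK044980 and -0.03 for NM_010513. Within the hyphen-titled arrays the Igf1r difference was 0.32 and the Erbb4 difference -0.27, and with the title form as a covariate they were 0.23 and -0.23. Of the pair with a shared animal number, leaving out the responder gave 0.35 for Igf1r and -0.44 for Erbb4, and leaving out the non-responder gave 0.41 and -0.42.

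The other members gave smaller differences relative to their error. For Ereg the responders read 2.24, 0.76 and 1.45, and all 3 exceeded the non-responder mean of 0.64 ± 1.16 (SD, n = 9). Its difference was 0.84 ± 0.60 (SE; limma adjusted p = 0.898), which was 1.56 for the wide spot and 0.13 for the other. With the title form as a covariate the Ereg difference was 1.63, and within the hyphen-titled arrays 2.22. It was 0.47 without responder replicate 1 and 0.54 without non-responder replicate 1. Hbegf differed by -0.35 ± 0.35 (SE), a sign that rested on responder replicate 2, without which it was 0.18. Egfr differed by 0.22 ± 0.23 and Met by 0.16 ± 0.20 (SE). For Met the 2 transcripts named on the array disagreed: the AK145182 spots differed by 0.50 ± 0.24 and the NM_008591 spot by -0.51 ± 0.35 (SE), at adjusted p-values of 0.802 and 0.883 in a limma fit of transcripts. Erbb2, Erbb3 and Nrg1 differed by 0.004 ± 0.24, 0.00003 ± 0.33 and 0.05 ± 0.32 (SE). For Erbb2 the difference turned to -0.35 with the title form as a covariate and to -0.40 within the hyphen-titled arrays.

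**Figure D2:**
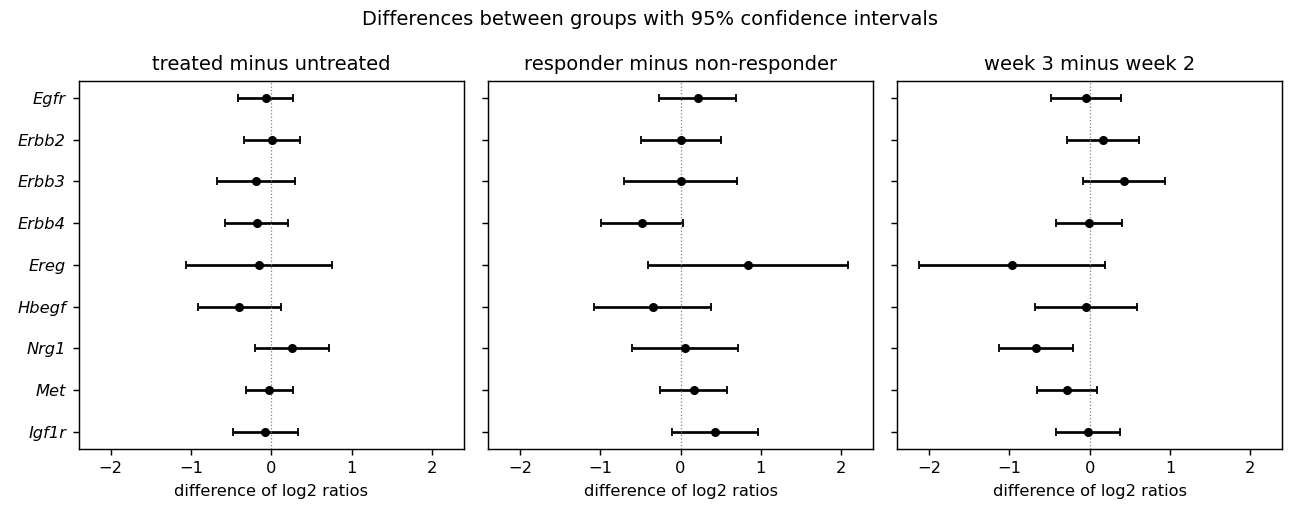
Differences of mean log2 ratios (horizontal axis) with 95% confidence intervals from limma for treated minus untreated, responder minus non-responder and week 3 minus week 2. In the first 2 panels every interval includes 0, and in the third the interval of Nrg1, from -1.13 to -0.21, does not.

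Both treated groups were also set against the same 7 untreated tumours, so these comparisons share their controls. Non-responders minus untreated tumours gave 0 of 9 members, beside 1.53% of all genes, and 0 of 9 at an unadjusted p under 0.05, beside 17.3%. Responders minus untreated tumours gave 0 of 9, beside 0.0755% of all genes, and 1 of 9 at an unadjusted p under 0.05, beside 16.1%. That member was Erbb4, which averaged -0.47 ± 0.46 in responders and 0.08 ± 0.44 in untreated tumours (SD, n = 3 and 7). Its difference was -0.55 ± 0.25 (SE; limma adjusted p = 0.293), and -0.28 without responder replicate 1. With the title form as a covariate it was -0.31, and within the hyphen-titled arrays, which held all 3 responders, -0.19.

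Side by side, Erbb4 differed from untreated by -0.55 ± 0.25 in responders and by -0.06 ± 0.18 in non-responders (SE). Hbegf differed from untreated by -0.66 ± 0.36 in responders and by -0.31 ± 0.26 in non-responders (SE), and the responder value was -0.14 without replicate 2, the responder at 0.50. Igf1r differed by 0.25 ± 0.27 in responders and by -0.18 ± 0.19 in non-responders. Egfr likewise lay on both sides of the untreated mean, at 0.09 ± 0.24 in responders and -0.12 ± 0.17 in non-responders, and so did Met, at 0.10 ± 0.21 in responders and -0.07 ± 0.15 in non-responders. For Ereg the differences were 0.48 ± 0.62 in responders and -0.36 ± 0.45 in non-responders. Nrg1 was above untreated in both, by 0.30 ± 0.33 in responders and 0.24 ± 0.24 in non-responders, and Erbb3 below it in both, at -0.20 ± 0.35 in responders and -0.20 ± 0.25 in non-responders. Erbb2 stayed within 0.01 of the untreated mean in both groups, at 0.0075 ± 0.25 in responders and 0.0034 ± 0.18 in non-responders.

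For Erbb4 and Hbegf the group means, lowest first, stood in the order responder, non-responder, untreated. With 1 tumour left out the Erbb4 difference of non-responders minus untreated tumours ran from -0.17 to 0.093, so that part of its order could turn. For Hbegf the order rested on responder replicate 2, since the other responders, at 2.26 and 1.89, averaged above the non-responders. For Igf1r the order was non-responder, untreated, responder. Between the 3 groups no pair passed the limma test for any of the 9 genes, with adjusted p-values of 0.293 or more.

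Between the weeks, among the treated tumours and with response as a covariate, no gene of 18624 passed (0%), and neither did any of the 9 members. At an unadjusted p under 0.05 there was 1 member of 9, beside 4.43% of all genes. It was Nrg1, which averaged -0.33 after 3 weeks and 0.33 after 2 weeks. In the non-responders it ran from -0.68 through a median of -0.52 to -0.03 in 5 tumours after 3 weeks. In the 4 non-responders after 2 weeks it ran from 0.17 through a median of 0.24 to 0.85. Responders read 0.27 and -0.47 after 3 weeks and 0.16 after 2 weeks. Over all treated tumours the values of the weeks overlapped. The difference was -0.67 ± 0.21 (SE; limma adjusted p = 0.940), and alternatives gave -1.498 to -0.26.

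The transcripts of Nrg1 shared the sign, with -0.998 ± 0.31 for NM_178591, -0.44 ± 0.26 for AK141037 and -0.55 ± 0.63 for AK048708 (SE). Ereg had the largest difference of the 9 genes, -0.97 ± 0.53, with means of 0.48 after 3 weeks and 1.365 after 2 weeks, and Erbb3 went the other way by 0.42 ± 0.23, with means of 0.38 after 3 weeks and -0.04 after 2 weeks (SE; limma adjusted p = 0.940 for both). The Ereg difference was -0.59 without non-responder replicate 1, -0.61 without non-responder replicate 9 and -0.27 among the arrays without the hyphen. By spot it was -1.592 ± 1.045 for NM_007950, the wide one, and -0.34 ± 0.30 for AK019057 (SE). Without non-responder replicate 9 the Erbb3 difference was 0.25, and with only spots measured on all arrays of the fit it was 0.19. The 4 Erbb3 spots correlated over the 19 arrays at a median r of 0.13. Erbb2 differed by 0.17 ± 0.21, Hbegf by -0.05 ± 0.29, Egfr by -0.04 ± 0.20, Igf1r by -0.02 ± 0.19 and Erbb4 by -0.0073 ± 0.19 (SE).

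Met as a gene differed by -0.29 ± 0.17 between the weeks (SE; limma adjusted p = 0.940). Its NM_008591 spot averaged 0.26 ± 0.24 after 3 weeks and 1.21 ± 0.42 after 2 weeks (SD, n = 7 and 5), while its AK145182 spots averaged 1.25 ± 0.39 after 3 weeks and 1.18 ± 0.34 after 2 weeks. The NM_008591 difference was -0.91 ± 0.19 (SE; limma adjusted p = 0.944 over all transcripts), and the values of the weeks overlapped between 0.65 and 0.75. It rests on a single spot, the one with the smallest p among the members' transcripts between the weeks. The AK145182 difference was 0.03 ± 0.20 (SE). Of the 5 tumours taken after 2 weeks, 4 had titles without the hyphen and the other was a responder.

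Most of the 24 Egfr spots belonged to 2 transcripts whose mean treated minus untreated differences had opposite signs. Each of these transcripts had 11 spots, and the spots of AK033431 and AK049452, which belong to neither, differed by -0.13 and -0.28. NM_207655 is the full-length receptor message and NM_007912 a shorter one whose product lacks the kinase. The positions of the probes are not analysed here, so a spot may detect both messages. This comparison of transcripts was chosen after the values were seen. NM_207655 spots averaged -0.14 ± 0.36 in treated tumours and 0.17 ± 0.38 in untreated tumours (SD, n = 12 and 7), and 10 of 11 spots were lower with treatment, while the other differed by 0.16. NM_007912 spots averaged 0.16 ± 0.26 in treated tumours and -0.05 ± 0.34 in untreated tumours, and 11 of 11 spots were higher. Spots of a transcript ran together over the arrays, at a median r of 0.92 for NM_207655 and 0.66 for NM_007912. Whether they repeat a probe was not tested, so these counts are not of independent measurements. Neither set passed by itself in a limma fit of transcripts, with differences of -0.31 ± 0.19 and 0.21 ± 0.16 (SE; adjusted p = 0.368 and 0.497).

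**Figure D3:**
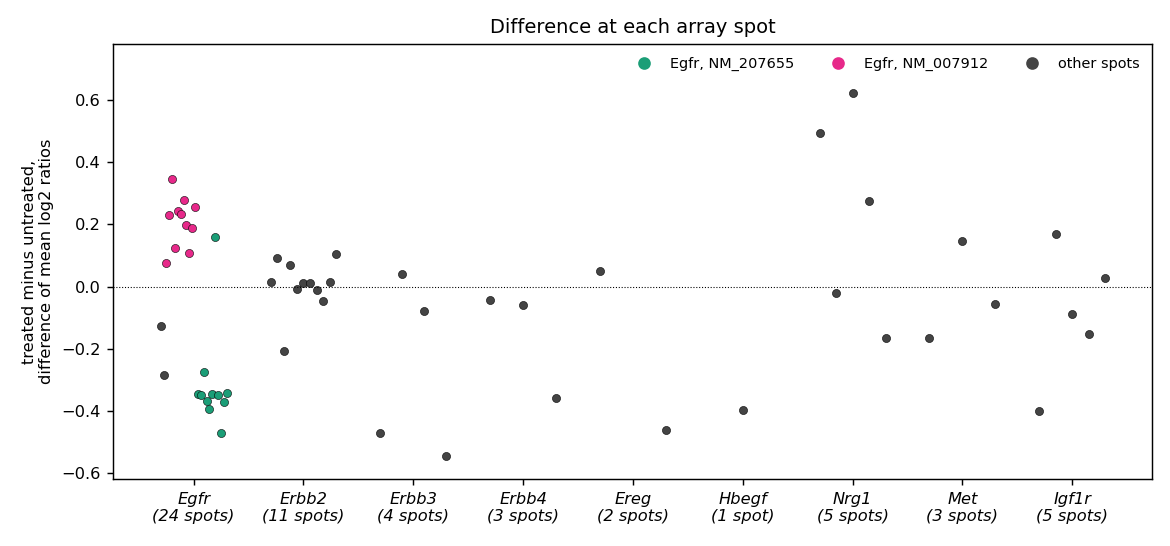
Treated minus untreated difference of mean log2 ratios (vertical axis) at each of the 58 spots used, by gene (horizontal axis), with the Egfr spots coloured by transcript. The 11 NM_007912 spots all lie above 0, and 10 of the 11 NM_207655 spots lie below it.

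The difference NM_207655 minus NM_007912 was then taken within each tumour. It was -0.04, -0.18 and -0.40 in the responders and ran from -0.65 to 0.02 in the non-responders, against -0.15 to 0.39 in the untreated tumours. Only 1 untreated tumour lay below 0 and only 1 treated tumour above it. Treated tumours averaged -0.30 ± 0.20 and untreated tumours 0.22 ± 0.18 (SD, n = 12 and 7), and each of the 12 treated tumours was under the mean of the untreated ones. The shift of -0.52 had a two-sided exact permutation p of 7.938e-05 over 50388 splits. Within the hyphen-titled arrays it was -0.36 (exact permutation p = 0.0952, where 0.0476 is the smallest possible), and within the other arrays -0.62 (exact permutation p = 0.00253).

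Set against every other gene with more than 1 transcript, the Egfr pair gave 2 answers. Over 6505 pairs of transcripts in 4048 genes, limma gave an unadjusted p of 0.00605 and an adjusted p of 0.161, so the pair did not pass, beside 0.0461% of pairs that did. The exact permutation test over the 3190 pairs measured on all arrays gave an adjusted p of 0.0211, and 3.61% of those pairs passed. The 2 Egfr sets correlated at r = 0.60 over the 19 tumours. The 5 members with several transcripts formed 21 pairs, and 0 of 21 passed in limma for treatment. For response 0 of 21 passed, beside 0% of all pairs.

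**Figure D4:**
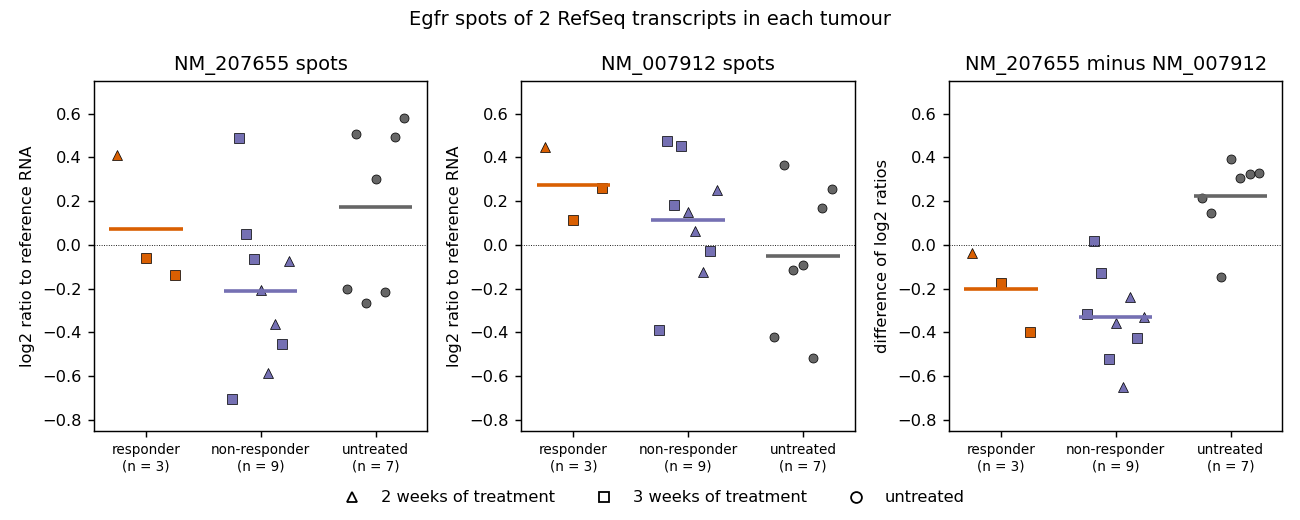
Mean log2 ratio of the 11 NM_207655 spots and of the 11 NM_007912 spots of Egfr in each tumour, and the difference of these means, by group with bars at group means. In the right panel 6 of 7 untreated tumours lie above 0 and 11 of 12 treated tumours below it.

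No pair of members correlated over the 19 tumours past the test. Of 36 pairs of members, 0 passed after adjustment over the pairs and 1 had an unadjusted permutation p under 0.05. That pair was Egfr and Igf1r (Pearson r = 0.52, permutation p = 0.0221, adjusted p = 0.794; Spearman rho = 0.54, permutation p = 0.0197, adjusted p = 0.354). Without the 2 tumours farthest from the Egfr median r was 0.36, and it was 0.82 in the hyphen-titled arrays and 0.12 in the others. On deviations from the group means r was 0.47. Between the title forms, hyphen-titled minus other arrays, Erbb2 differed by 0.45 ± 0.18 and Ereg by -1.01 ± 0.48 (SE; limma adjusted p = 0.373 and 0.460). Its part in the other differences was not tested beyond the values given.

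As a description, the genes whose log2 ratios ran most like each member over the 19 tumours were taken from 14984 genes measured on all arrays. For Egfr they were Tex2 (r = 0.80) and Kctd1 (0.78), and for Erbb2 Cited4 (0.79) and Haus8 (0.78). Erbb4 ran with the imprinted noncoding RNA H19 (0.87) and with Pcdh12 (0.86), Hbegf with Ino80c (0.79) and Rbm5 (0.78), and Met with Snu13 (0.80) and Ovol1 (0.76). Igf1r ran with 8430416G17Rik (0.87) and Susd4 (0.81), Ereg with Kirrel2 (0.78) and Sh3rf1 (0.77), and Nrg1 with Drd4 (0.72) and Cd274 (0.71). Without the 2 tumours farthest from the member's median the Ereg values were 0.49 and 0.51 and those of Nrg1 0.55 and 0.75. Those of Erbb4 were then 0.61 for H19 and 0.79 for Pcdh12, and those of Igf1r 0.82 for 8430416G17Rik and 0.60 for Susd4. Across Egfr, Erbb2, Hbegf and Met they ran from 0.68 to 0.81. For Erbb3 the values were 0.73 for Olfr1366 and 0.73 for 5033421B08Rik, and without the 2 tumours farthest from the Erbb3 median they were 0.34 and -0.19. All share arrays and spot averaging with the member. Each was picked as 1 of the 2 highest of 14984 genes on the same 19 tumours, so picking alone raises these values. Whether they go beyond that was not tested.

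Around the receptors, 3 of 75 other measured genes of the pathway passed between treated and untreated tumours, a share near the 3.65% of all genes that did. The other ErbB ligands gave 0 of 7 in either direction. Egf, the founding ligand, differed by 0.30 ± 0.21 and Btc (betacellulin) by 0.37 ± 0.29 (SE; limma adjusted p = 0.461 and 0.508). Their list had a median of 0.01, against 0.03 for all genes. Of 10 genes for ligand shedding, 1 was higher and 0 were lower, beside 2.21% and 1.44% of all genes. This was Adam8, a metalloprotease of leukocytes and tumour cells, at 1.35 through a median of 2.17 to 3.36 in treated tumours, against -0.36 through a median of 1.23 to 2.01 in untreated tumours. All 12 treated tumours lay above the untreated mean, and the difference was 1.23 ± 0.33 (SE; limma adjusted p = 0.0408). All 5 measured genes of the 7 on the macrophage list were above the reference on average, and the list's mean was 1.22 to 2.27 in treated tumours, against 0.60 to 1.60 in untreated tumours. The basal and myoepithelial list averaged -0.83 in treated and -1.69 in untreated tumours, the fibroblast list -1.68 in treated and -2.35 in untreated tumours, and the epithelial list 1.56 in treated and 1.46 in untreated tumours. The skeletal muscle list averaged -3.09 in treated and -4.13 in untreated tumours, the adipocyte list -3.53 in treated and -4.13 in untreated tumours, the T cell list 0.02 in treated and -0.29 in untreated tumours, and the endothelial list -1.06 in treated and -1.31 in untreated tumours. The part of these cell types in the Adam8 result and in the 2 results that follow was not tested.

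Of 18 measured adaptors and signal relays, 0 were higher and 2 lower, beside 2.21% and 1.44% of all genes, and the list's median was -0.11, against 0.03 for all genes. Sos2, a Ras exchange factor that works with Grb2, ran from -1.34 through a median of -0.66 to -0.37 in treated tumours, against -0.70 through a median of -0.05 to 0.37 in untreated tumours. Grb7, an adaptor that binds Erbb2 and lies close to it in the genome, ran from 0.16 through a median of 0.61 to 1.18 in treated tumours, against 0.63 through a median of 1.41 to 2.09 in untreated tumours. For both genes, the values of all 12 treated tumours were under the mean of the untreated ones. The differences were -0.63 ± 0.16 for Sos2 and -0.73 ± 0.19 for Grb7 (SE; limma adjusted p = 0.0367 and 0.0378).

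These 3 calls were narrow. Adam8 did not pass without responder 1 or 2, non-responder 3, 4, 5 or 9, or untreated tumour 2, 4, 5 or 6, with differences of 0.99 to 1.31 and adjusted p-values of 0.0503 to 0.103. Sos2 did not pass without responder 2, non-responder 4 or 5, or untreated tumour 2, 4, 5 or 6 (-0.64 to -0.55, adjusted p = 0.0516 to 0.0987). Grb7 did not pass without any 1 of the responders, non-responder 4, 5 or 9, or untreated tumour 2, 4 or 6 (-0.74 to -0.60, adjusted p = 0.0531 to 0.0994). None of the 3 passed within either title form alone, where few genes of any kind did (2 among hyphen-titled arrays and 262 among the others). The differences kept their sign there: Adam8 gave 1.46 among hyphen-titled arrays and 1.09 among the others, Sos2 gave -0.97 among hyphen-titled arrays and -0.46 among the others, and Grb7 gave -1.15 among hyphen-titled arrays and -0.50 among the others.

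Of 20 negative regulators 0 passed in either direction, beside 3.65% of all genes, with a median of -0.16, against 0.03 for all genes. Ptpn1, a phosphatase that acts on insulin and growth factor receptors, differed by 0.58 ± 0.16 (SE; limma adjusted p = 0.0512), and Dusp6, a phosphatase of ERK, by -0.72 ± 0.26 (adjusted p = 0.116). Of 20 ligands and partners of Met and Igf1r 0 passed, beside 3.65% of all genes. Their median was 0.28, against 0.03 for all genes, and 15 of 20 were above 0, beside 52.7% of all genes. Igfbp2 and Igfbp4, which bind insulin-like growth factors, differed by 0.99 ± 0.32 and 0.64 ± 0.25 (SE; adjusted p = 0.0792 and 0.160). Within the hyphen-titled arrays the Igfbp2 difference was -0.022, and within the other arrays it was 1.57 (limma adjusted p = 0.0445). In the other 4 comparisons 0 of these 75 genes passed.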

How the data were processed

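Per the labels' protocols, RNA was isolated with a column kit. Published articles are cited there for growth and labelling. The authors deposited 1 log2 ratio per spot and array. Their log base, direction, scanner, background correction, normalization and filters were not given in the sources used here. A log2 scale was inferred from how far the values reach from 0. An exact 0, which held 1.63% to 9.10% of the spots of an array, was taken as not measured. Array medians lay between -0.08 and 0.01. The number of arrays limits the precision.

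Spots with 1 gene in the platform annotation (33653 of 45220) were kept when at least 70% of a fit's arrays measured them, and were averaged per gene, which left 18553 genes with all arrays and 18624 with the treated arrays. Tests used lmFit and eBayes of limma 3.58.1 (R 4.3.3), two-sided and on the whole table, with Benjamini-Hochberg adjustment over all genes and a threshold of 0.05. Treatment was fitted with 2 groups, response with 3 groups over all 19 arrays, and week among the 12 treated arrays with response as a covariate. Correlations between members and their 100000 permutations were computed in Python 3.11.15, with ranks from SciPy 1.17.1. The difference between Egfr transcripts was tested with an exact permutation test. The fit was tested on simulated data.

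The members and lists were chosen with earlier results of these data known. Every measured member was named in every comparison. From the pathway lists, each gene past the threshold was named, and otherwise the 2 with the smallest p, for treated minus untreated alone. Each member's 2 most correlated genes were named as well. Alternatives covered the exact zeros, the spot filter, the use of spots, scaling, the variance model, the title form and each array left out.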

Additional observations from a re-analysis of the deposited data

Results flagged for a closer look

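Among 24 groups, each of the 9 non-responders or the 7 untreated tumours, 2 held a value far from the rest of its group. Chance alone gives about 1 such group in 20. The groups included Egfr, its 2 transcripts and their difference, so they were not all separate. Erbb4 in untreated replicate 5 was 1.00, where the next untreated tumour was 0.12. Over all arrays the 3 Erbb4 spots used reached at most 0.26, 2.98 and 0.675, so the value of 1.00 rested mainly on 1 spot. Hbegf in untreated replicate 7 was 0.95, where the next untreated tumour was 2.08.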

How the results depend on the processing

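No member passed in any of the 5 comparisons under any alternative tried or with any 1 tumour left out. No paired analysis was possible because the replicate numbers were given in accession order and pair nothing, and a shared animal number joined only 1 responder and 1 non-responder. The number of all genes that passed did depend on the processing. For treated minus untreated (678 genes) it was 1313 with spots measured on all arrays, 2 among hyphen-titled arrays and 262 among the other arrays, and 212 (without untreated replicate 4) to 1183 (without untreated replicate 1) with 1 tumour left out. For non-responder minus untreated (283) it was 694 with spots measured on all arrays, 184 with the most variable spot, 149 with only the 2 groups compared, 0 among hyphen-titled arrays, and 33 (without untreated replicate 4) to 607 (without untreated replicate 1) with 1 tumour left out. For responder minus untreated (14) it was 366 with spots measured on all arrays, 47 with a trended and robust variance, 39 with exact zeros kept, 1 with the title form as a covariate, 0 among hyphen-titled arrays and with only the 2 groups compared, and 3 to 396 (without untreated replicate 1) with 1 tumour left out. For responder minus non-responder (0) it was 0 to 12 (without responder replicate 1). The Egfr transcript difference missed the threshold among hyphen-titled arrays (-0.36), was -0.54 with medians over spots, and ran from -0.58 to -0.49 with 1 tumour left out. Sos2 and Grb7 narrowly missed it with the most variable spot (-0.63 and -0.73, adjusted p = 0.0530 and 0.0515) and after quantile normalization (-0.69 and -0.67, adjusted p = 0.0821 and 0.0517), with differences close to the main ones, while Ptpn1 passed under 3 alternatives and Igfbp2 under 1, tumours left out not counted. Some differences turned their sign, though neither the main nor the turned value passed the threshold, and the cause was not tested. With arrays centred on their median, treated minus untreated gave Erbb2 -0.0067, non-responder minus untreated gave Erbb2 -0.0050, responder minus untreated gave Erbb2 -0.012, responder minus non-responder gave Erbb2 -0.0070, Erbb3 -0.011. With the most variable spot per gene, treated minus untreated gave Erbb2 -0.21, Met 0.15, non-responder minus untreated gave Erbb2 -0.40, Erbb4 0.051, Met 0.022, responder minus untreated gave Egfr -0.41, responder minus non-responder gave Egfr -0.17. With only the non-responders, week 3 minus week 2 gave Egfr 0.081, Hbegf 0.26. After quantile normalization, treated minus untreated gave Met 0.022, responder minus non-responder gave Erbb2 -0.019, Erbb3 -0.020, week 3 minus week 2 gave Egfr 0.060, Hbegf 0.15, Igf1r 0.016. With spots centred before averaging, responder minus non-responder gave Erbb3 -0.0065. With spots measured on all arrays, treated minus untreated gave Ereg 0.052, non-responder minus untreated gave Erbb3 0.029, Ereg 0.020, responder minus non-responder gave Erbb3 -0.19, Nrg1 -0.31, week 3 minus week 2 gave Igf1r 0.062. With title form as a covariate, treated minus untreated gave Erbb2 -0.036, responder minus untreated gave Erbb2 -0.31, responder minus non-responder gave Erbb2 -0.35, week 3 minus week 2 gave Erbb4 0.047, Hbegf 0.050. Among hyphen-titled arrays, treated minus untreated gave Erbb2 -0.10, Erbb3 0.099, Nrg1 -0.17, Met 0.014, Igfbp2 -0.022, non-responder minus untreated gave Erbb3 0.14, Erbb4 0.075, Nrg1 -0.36, responder minus untreated gave Erbb2 -0.26, Erbb3 0.072, Nrg1 -0.040, Igf1r -0.024, responder minus non-responder gave Erbb2 -0.40, Erbb3 -0.068, week 3 minus week 2 gave Erbb4 0.79, Igf1r 0.024. Among the other arrays, treated minus untreated gave Erbb2 -0.0046, non-responder minus untreated gave Erbb2 -0.0046, week 3 minus week 2 gave Egfr 0.11, Hbegf 0.48. With exact zeros kept as values, treated minus untreated gave Ereg 0.0026. With 1 tumour left out, treated minus untreated gave Erbb2 -0.062 to 0.12, Ereg -0.31 to 0.090, Met -0.080 to 0.029, Igf1r -0.18 to 0.075, Erbb3 -0.28 to 0.0061. Non-responder minus untreated gave Erbb2 -0.063 to 0.12, Erbb3 -0.28 to 0.0061, Erbb4 -0.17 to 0.093. Responder minus untreated gave Egfr -0.062 to 0.20, Erbb2 -0.059 to 0.13, Erbb3 -0.28 to 0.0061. Responder minus non-responder gave Erbb3 -0.12 to 0.088, Nrg1 -0.087 to 0.28, Erbb2 -0.067 to 0.063, Hbegf -0.70 to 0.18. Week 3 minus week 2 gave Egfr -0.14 to 0.081, Hbegf -0.15 to 0.26, Igf1r -0.12 to 0.053, Erbb4 -0.25 to 0.064. Signal over background was not used, and only 3 responders limit each comparison that includes them.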
